A study of Mus musculus with 12 samples.

Results

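The D-type cyclins Ccnd1, Ccnd2 and Ccnd3, the cyclin-dependent kinases Cdk2, Cdk4 and Cdk6, and the pocket proteins Rb1, Rbl1 and Rbl2 were examined in the cardiac ventricle of mouse embryos that lacked Hdac2, Hopx, both or neither. Every probe set that the platform annotation pairs with 1 of these 9 genes and no other was taken, which gave 29 of the 45101 probe sets on the array, for 9 of the 18193 genes that have such probe sets. D cyclins accounted for 13 of them, kinases for 8 and pocket proteins for 8. A probe set is a group of short probes read out as 1 signal, so several probe sets of a gene measure different stretches of its transcripts. Signals are given in the linear units of the deposited table.

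Ventricles were taken at embryonic day 16.5, and RNA of 3 independent ventricles per genotype was hybridised to 12 single-colour arrays. Controls were wild type, and the mutants lacked Hdac2 (Hdac2-null), Hopx (Hopx-null) or both genes (double-null). The kind of null allele, any Cre driver and the strain are not given in the sources used here. Hdac2 encodes a histone deacetylase, and Hopx encodes a small homeodomain protein that does not bind DNA itself.

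D cyclins are made in response to growth signals and bind Cdk4 or Cdk6. The active kinases phosphorylate the pocket proteins, which otherwise hold E2F transcription factors in check, and Cdk2 with cyclin E continues the phosphorylation until E2F target genes are expressed and DNA replication starts. In the fetal heart this pathway is used by cardiomyocytes that still divide, and Ccnd2 is among the D cyclins known to drive their proliferation. Rbl1 (p107) and Rbl2 (p130) are relatives of Rb1. They bind mainly the repressive E2F proteins, and assemble with the MuvB proteins into the DREAM complex, which silences cell cycle genes.

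Promoters were available for 6 of the 9 genes in the RefSeq promoter table (assembly GRCm38.p6, 7 promoters), and are shown because Rbl1 is itself an E2F-regulated gene and Cdk4 a textbook target of Myc. In the 250 bases before each start, the E2F letters TTTCGCGC, TTTGGCGC, TTTCCCGC and TTTGCCGC were found on either strand in Rbl1 and in Cdk2, against 1.86% of 32851 promoters. The E-box CACGTG was found in Cdk4 and in Cdk6, against 6.02%. The GATA letters AGATAA, present in 9.99% of promoters, were found in none of the 7. No promoter of the 7 held both an E2F and an E-box match, so no matches overlapped. Each sequence reads 5′ to 3′ along the gene's strand, with the matches in capitals. The Rbl1 window is chr2:157204535-157204564 on the minus strand, and its match begins 18 bases before the start. The Cdk2 window is chr10:128705172-128705203 on the minus strand, and its match, on the other strand, begins 140 bases before the start. The Cdk6 window is chr5:3343661-3343690 on the plus strand. The Cdk4 window is chr10:127063351-127063534 on the plus strand and holds 4 matches, the first 172 bases before the start. A match describes letters and shows no bound factor.
Rbl1: caagaaggcgatTTTCGCGCgctttgtcgc
Cdk2: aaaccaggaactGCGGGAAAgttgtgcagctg
Cdk6: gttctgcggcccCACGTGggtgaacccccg
Cdk4: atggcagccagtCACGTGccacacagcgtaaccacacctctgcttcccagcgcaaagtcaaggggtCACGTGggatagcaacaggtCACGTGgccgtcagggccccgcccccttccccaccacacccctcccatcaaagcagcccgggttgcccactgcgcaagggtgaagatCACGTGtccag

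Of the 12 arrays, wild type 1 and Hopx-null 1 stood apart. On the first principal component, which held 26.3% of the variance, they lay at -30.2 and -24.5, and the other 10 arrays lay between 0.937 and 13.5. The Gapdh 3′ to 5′ log2 signal ratio, a measure of RNA integrity, was 1.328 on wild type 1 and 1.04 on Hopx-null 1, against 0.842 to 1.075 on the other 10. The same ratio for actin did not set them apart, at 2.756 and 2.758 against 2.635 to 2.795 on the other 10. The X-inactivation transcript Xist was high on 5 arrays (wild type 1 and 2 and replicate 1 of each null group) and at most 22.2 units on 7, so sex was not balanced. Mean Hdac2 signal (± SD, n = 3) was 4839 ± 314 units with both genes present and 4903 ± 679 with Hopx alone lost. It was 4.05 with Hdac2 alone lost and 4.15 in the double-null group. Mean Hopx signal was 9817 ± 2082 units with both genes present and 12042 ± 317 with Hdac2 alone lost. It was 1992 ± 111 with Hopx alone lost and 1700 ± 38.6 in the double-null group. Both targeted genes thus followed the labels, although the sources used here do not place these probe sets inside or outside the deletions. All 12 markers of ventricular cardiomyocytes were above background. Their summed signal was between 337163 and 347482 units on every array.

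A floor of 82.5 units, set from the arrays' mean signals, separated measurable signals from background. Of the 29 probe sets, 9 were at or below the floor on all 12 arrays and were not tested. They belonged to Ccnd1 (1), Ccnd3 (2), Cdk2 (1), Cdk6 (1), Rb1 (1), Rbl1 (2) and Rbl2 (1). The other 20 were tested, and each of the 9 genes had at least 1 of them. Among these, 19 were above the floor on all 12 arrays, and the exception was the dim Rbl1 probe set 1425166_at. Groups were compared with limma over 15712 probe sets, and a call required a Benjamini-Hochberg adjusted p under 0.05.

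None of the 20 tested probe sets was called in any of the 8 comparisons. The background of calls was as low: 0.0191% of all probe sets in Hdac2-null against wild type, 0.0127% in Hopx-null against wild type and 0.0382% in double-null against wild type. It was 0.0191% in double-null against Hdac2-null and also 0.0191% in double-null against Hopx-null. At an unadjusted p under 0.05, the member count was 1 of 20 in Hdac2-null against wild type (5.49% of all probe sets), 0 in Hopx-null against wild type (2.83%) and 2 in double-null against wild type (7.64%). It was 4 in double-null against Hdac2-null (11.5%) and 4 in double-null against Hopx-null (7.9%). The median limma SE of a log2 difference was 0.13 over the 20 and 0.12 over all probe sets. Differences well above this size can also miss the threshold with 3 arrays per group. Ccnd2 1416123_at in double-null against Hopx-null, at log2 -0.55 (SE 0.09), had a limma adjusted p of 0.235. A p that misses the threshold does not show that the groups were alike.

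The widest spreads of group means belonged to Ccnd2 (up to log2 0.55) and to a dim Cdk6 probe set (0.47), and no other spread was above 0.26. Ccnd2 was lower in double-null ventricles than in the other 3 genotypes in most of its 7 probe sets, by up to 1.46-fold. A dim Cdk6 probe set was 1.38-fold lower in double-null than in Hdac2-null ventricles, and the brighter Rbl1 probe set was 1.20-fold higher in double-null than in Hopx-null ventricles. The dim Rbl1 probe set differed by log2 -0.12 (SE 0.40) in that comparison, and by 0.30 (SE 0.24) without wild type 1 and Hopx-null 1. In Ccnd3, Cdk2 and Rbl2 the wild-type arrays alone lay farther apart than the 4 group means. All of these differences were below the calling threshold.

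**Figure D1:**
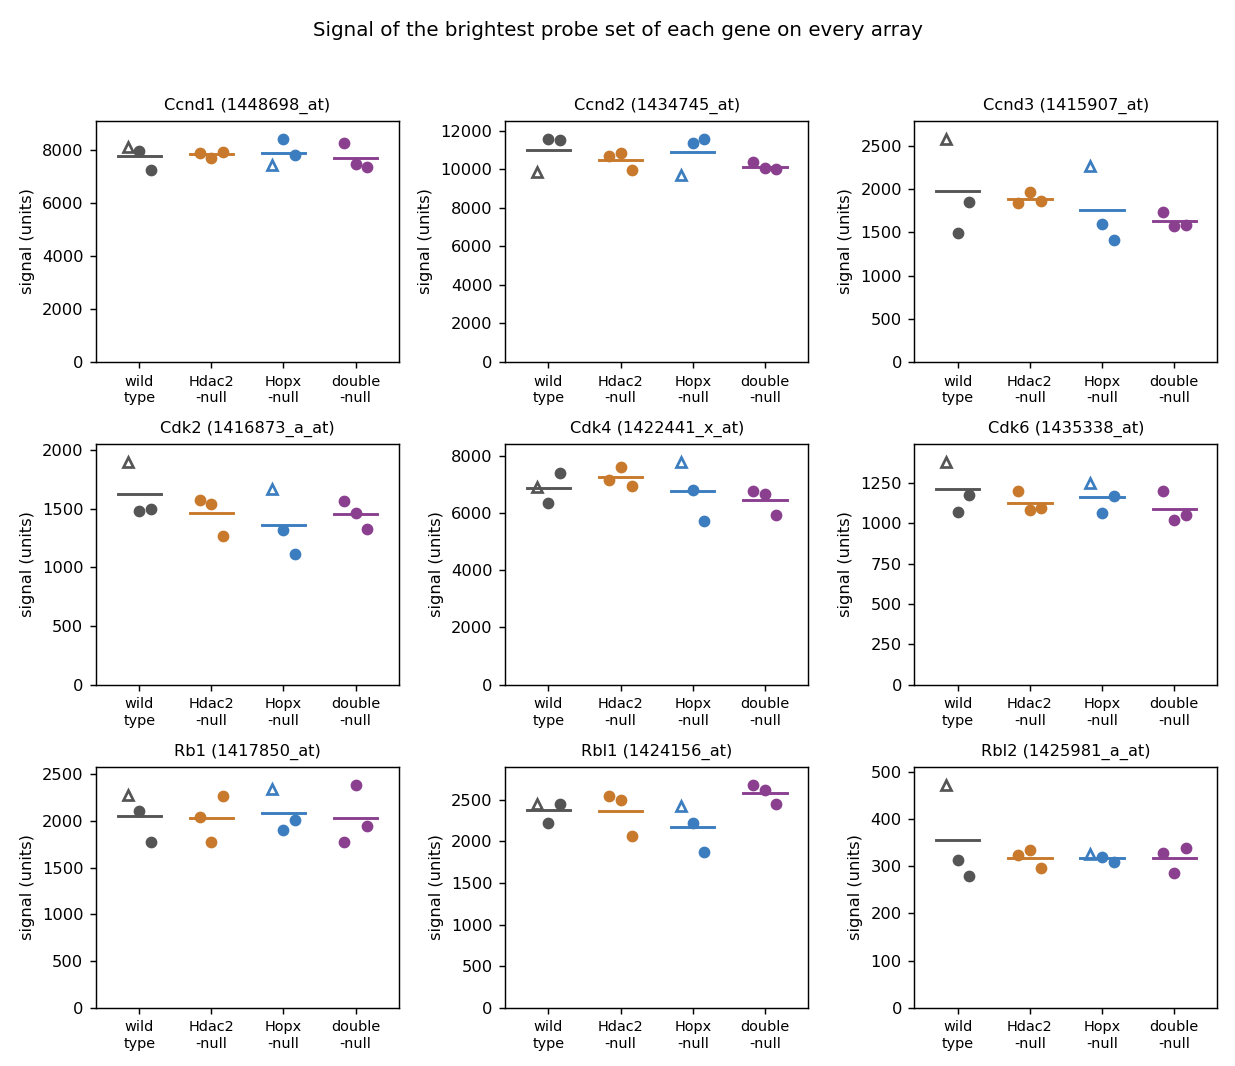
Signal in linear units, on an axis from 0, of the highest-signal probe set of each gene on every array. Points are arrays, open triangles are wild type 1 and Hopx-null 1, and bars are group means. Ccnd1 stays between 7256 and 8423 units on all 12 arrays, and the highest Ccnd3, Cdk2, Cdk6 and Rbl2 signals are those of wild type 1.

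Ccnd1 had a bright and a dimmer tested probe set. The bright one, 1448698_at, read 8122, 7959 and 7256 units on wild type 1 to 3, 7877, 7690 and 7947 on the Hdac2-null arrays, 7435, 8423 and 7834 on the Hopx-null arrays, and 8277, 7474 and 7357 on the double-null arrays. The 4 groups overlapped, and the highest array was 1.16 times the lowest. Double-null differed from wild type by log2 -0.01 (SE 0.06, limma adjusted p = 0.968). The 95% interval of that difference reached from 1.11-fold lower to 1.09-fold higher. The dimmer, 1417420_at, varied more, from 494 to 778 units (1.57-fold) with overlapping groups, and the order of its group means (Hopx-null, double-null, wild type, Hdac2-null) had no neighbours that differed beyond their spread. The third, 1417419_at, lay between 39.9 and 59.0 units, under the floor. Across the 12 arrays the pair of tested Ccnd1 probe sets had r = 0.0245, so neither tracked the other.

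Ccnd2 had 7 probe sets, and all were above the floor on every array. Probe set 1416123_at read 2315, 2685 and 2409 units on wild type 1 to 3, 2356, 2719 and 2218 on the Hdac2-null arrays, 2589, 2839 and 2780 on the Hopx-null arrays, and 1977, 1867 and 1768 on the double-null arrays. Each double-null array was below each of the other 9, and the share of all probe sets that showed this was not counted. Taken alone, every wild-type array lay above every double-null array in 8.73% of all probe sets. For Hdac2-null arrays the share was 13.9% and for Hopx-null arrays 8.43%. Group means were 2470 ± 192 in wild type, 2431 ± 258 in Hdac2-null, 2736 ± 131 in Hopx-null ventricles, and 1870 ± 104 in the double-null group (SD, n = 3). Double-null was 1.32-fold lower than wild type (log2 -0.40, SE 0.09, 95% interval -0.59 to -0.21, limma adjusted p = 0.515). It was 1.30-fold lower than Hdac2-null (log2 -0.37, SE 0.09, adjusted p = 0.319) and 1.46-fold lower than Hopx-null (log2 -0.55, SE 0.09, 95% interval -0.74 to -0.35, adjusted p = 0.235). These 3 comparisons share the double-null arrays. In the last of them the probe set had the 5th smallest p of 15712. The other 3 genotypes did not differ beyond their spread, with Hopx-null at log2 0.15 (SE 0.09) and Hdac2-null at -0.03 (SE 0.09) from wild type.

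A second probe set with this pattern was 1448229_s_at. It read 1191, 1330 and 1162 units on wild type 1 to 3, 1163, 1296 and 1055 on the Hdac2-null arrays, 1440, 1381 and 1316 on the Hopx-null arrays, and 1040, 920 and 1002 on the double-null arrays. The double-null arrays were again the lowest, each below all other 9, a pattern whose share of all probe sets was not counted. Double-null was 1.24-fold lower than wild type (log2 -0.31, SE 0.10, adjusted p = 0.569), 1.18-fold lower than Hdac2-null (log2 -0.24, adjusted p = 0.395) and 1.40-fold lower than Hopx-null (log2 -0.48, adjusted p = 0.504). The pair had r = 0.926 and Spearman's rho = 0.874 over the 12 arrays, which share genotype and array quality. The suffix marks a probe set whose probes match more than 1 transcript, and both belong to Ccnd2 alone in the annotation.

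The remaining 5 Ccnd2 probe sets were split by the pair of arrays that stood apart. Probe set 1434745_at, with the highest signal, read 9873, 11581 and 11528 units on wild type 1 to 3, 10713, 10854 and 9951 on the Hdac2-null arrays, 9717, 11370 and 11553 on the Hopx-null arrays, and 10358, 10049 and 10028 on the double-null arrays. Wild type 1 and Hopx-null 1 were the lowest arrays of all. Double-null differed from wild type by log2 -0.11 (SE 0.08, adjusted p = 0.725). Probe set 1416122_at read 813, 1559 and 1450 units on wild type 1 to 3, 1288, 1413 and 1193 on the Hdac2-null arrays, 958, 1704 and 1141 on the Hopx-null arrays, and 1102, 1042 and 908 on the double-null arrays. Here too wild type 1 was the lowest array, and the wild-type arrays spanned the double-null ones. Double-null differed from wild type by log2 -0.27 (SE 0.25). The differences were -0.29 (SE 0.17) for 1455956_x_at and -0.29 (SE 0.17) for 1430127_a_at. Probe set 1416124_at ran from 2220 on Hopx-null 1 to 3554 on Hopx-null 3, with double-null between 3064 and 3154, and its difference from wild type was 0.01 (SE 0.16).

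**Figure D2:**
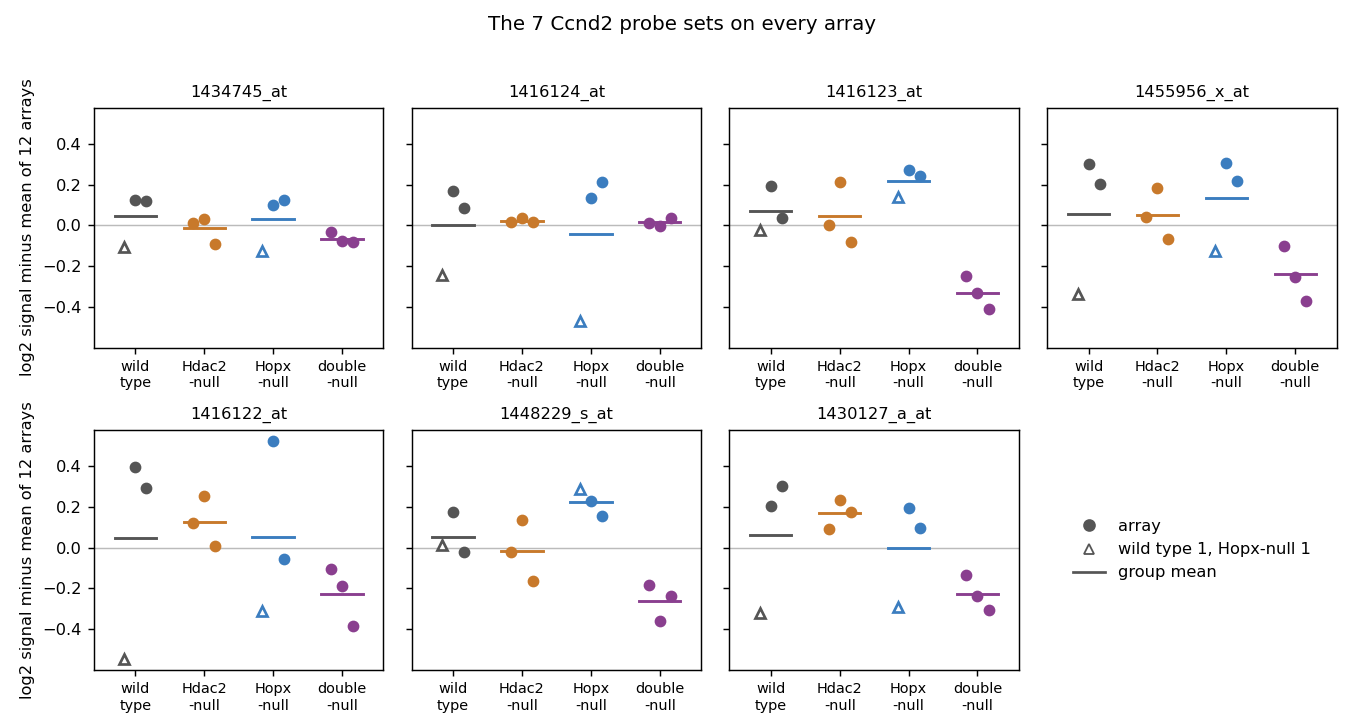
Log2 signal of the 7 Ccnd2 probe sets on every array, minus the mean of the 12 arrays for that probe set. Points are arrays, open triangles are wild type 1 and Hopx-null 1, and bars are group means. In 1416123_at and 1448229_s_at the 3 double-null arrays lie below the other 9, and in the other 5 wild type 1 and Hopx-null 1 lie lowest of their genotypes.

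With all arrays, 6 of 7 Ccnd2 probe sets were lower in double-null than in wild-type ventricles, with a median log2 of -0.29 and a range from -0.40 to 0.01. Without wild type 1 and Hopx-null 1, which was tried after the data were seen, 7 of 7 were lower, with a median of -0.44 and a range from -0.57 to -0.11. In that fit 6 of the 7 had an unadjusted p under 0.05, against 4.45% of all probe sets in that direction, and their adjusted p lay between 0.372 and 0.625. Against Hopx-null, 7 of 7 were then lower with an unadjusted p under 0.05, against 5.1% of all (adjusted p from 0.166 to 0.505). Against Hdac2-null, 7 of 7 were lower and 5 had an unadjusted p under 0.05, against 8.31% (adjusted p from 0.224 to 0.967). The 7 probe sets measure 1 transcript family on the same arrays and are not independent observations. All 7 stayed below the calling threshold with and without these arrays.

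The low Ccnd2 signals of the double-null arrays went with low endothelial markers, and in the other genotypes the Ccnd2 probe sets differed in their order. All 10 endothelial markers were measured, and their summed signal was 18148 to 18638 units on the double-null arrays. It was 19245 to 21229 in wild type, 20058 to 21407 in Hdac2-null and 19141 to 19581 in Hopx-null ventricles, so the double-null arrays were below all others. The Hopx-null sum overlapped the low end of wild type. Hopx-null had the highest mean of Ccnd2 1416123_at, 1448229_s_at and 1455956_x_at. The highest mean of 1416122_at, 1416124_at and 1430127_a_at was that of Hdac2-null, and of 1434745_at that of wild type. In 1430127_a_at the order of means was Hdac2-null, wild type, Hopx-null and double-null. The median endothelial differences from wild type had that order too (log2 0.03 in Hdac2-null, -0.05 in Hopx-null and -0.17 in double-null). No other Ccnd2 probe set had it, but Cdk4 1422441_x_at and 1422440_at and Cdk6 1455287_at did. In Ccnd2 1416123_at, 1448229_s_at and 1455956_x_at the order was Hopx-null, wild type, Hdac2-null and double-null. Of 8 leukocyte markers 4 were measured (Csf1r, Fcer1g, Tyrobp and Lyz2), and Ptprc, Cd68, Aif1 and C1qa were at or below the floor on every array. Their sum was 4625 to 5308 in double-null, 5541 to 6156 in wild type, 4719 to 5140 in Hdac2-null and 5050 to 5365 in Hopx-null ventricles. The leukocyte sums of Hdac2-null and double-null ventricles overlapped, and both lay below those of wild type. The cardiomyocyte sum overlapped between double-null (340147 to 346770) and wild type (341179 to 344498). In bulk RNA fewer cells of a type and less RNA per cell cannot be told apart, and the part of these markers in the Ccnd2 values was not tested.

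Ccnd3 varied within genotypes. Its tested probe set 1415907_at read 2582, 1498 and 1850 units on wild type 1 to 3, 1841, 1968 and 1859 on the Hdac2-null arrays, 2266, 1598 and 1414 on the Hopx-null arrays, and 1736, 1576 and 1582 on the double-null arrays. Wild type 1 and Hopx-null 1 were the highest arrays, opposite to their place in most Ccnd2 probe sets. Double-null differed from wild type by log2 -0.24 (SE 0.20, adjusted p = 0.754), and by -0.03 without both arrays. Against Hopx-null the difference was -0.08 with them and 0.12 without them. Its other 2 probe sets, 1438805_at and 1444323_at, stayed at or below 5.46 units.

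**Figure D3:**
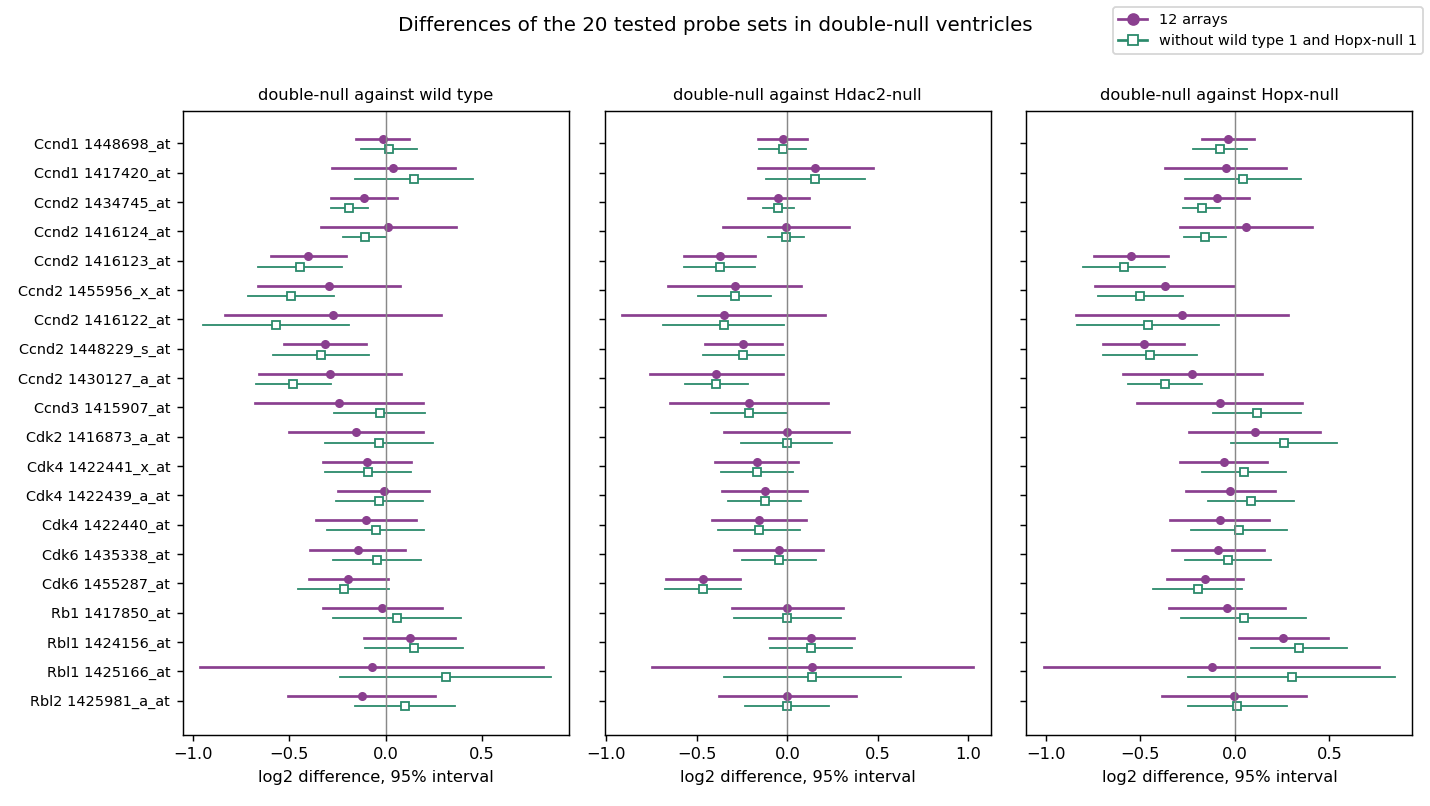
Log2 differences of double-null ventricles from each other genotype for the 20 tested probe sets, with 95% intervals from limma. Filled circles are the fit over 12 arrays, and open squares are the fit without wild type 1 and Hopx-null 1. The Ccnd2 rows lie mostly left of 0 in all 3 panels, and the Cdk6 probe set 1455287_at lies farthest left in the comparison with Hdac2-null, at -0.47.

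The kinases are the catalytic partners of the D cyclins. Cdk4 had 3 probe sets, all tested, and they tracked one another over the 12 arrays (r from 0.867 to 0.937). Probe set 1422441_x_at read 6912, 6338 and 7399 units on wild type 1 to 3, 7157, 7601 and 6947 on the Hdac2-null arrays, 7780, 6784 and 5698 on the Hopx-null arrays, and 6761, 6644 and 5910 on the double-null arrays. Each double-null array was below each Hdac2-null array, and all other pairs of genotypes overlapped. Double-null differed from Hdac2-null by log2 -0.17 (SE 0.10, adjusted p = 0.559), and from wild type by -0.10 (SE 0.10, 95% interval -0.33 to 0.13). Hdac2-null also had the highest mean and double-null the lowest in 1422439_a_at and 1422440_at. Their differences from Hdac2-null were -0.13 (SE 0.11) and -0.16 (SE 0.12).

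Cdk6, which shares the D cyclins with Cdk4, had a pair of tested probe sets that disagreed (r = 0.0417 over 12 arrays). The brighter, 1435338_at, read 1208 ± 157 in wild type, 1124 ± 63.0 in Hdac2-null, 1159 ± 92.3 in Hopx-null ventricles, and 1090 ± 95 in the double-null group (SD, n = 3), and the groups overlapped. The dimmer, 1455287_at, read 162, 161 and 178 units on wild type 1 to 3, 204, 208 and 192 on the Hdac2-null arrays, 154, 158 and 176 on the Hopx-null arrays, and 146, 157 and 136 on the double-null arrays. All Hdac2-null arrays were above the other 9. Every Hdac2-null array was above every wild-type array in 4.7% of all probe sets, and the share above all 9 was not counted. All double-null arrays were below the wild-type ones (8.73% of all probe sets for this genotype alone) and the Hdac2-null ones (13.9% for this genotype alone). Double-null was 1.38-fold lower than Hdac2-null (log2 -0.47, SE 0.09, 95% interval -0.67 to -0.26, adjusted p = 0.303). Hdac2-null was 1.21-fold higher than wild type (log2 0.27, SE 0.09, adjusted p = 0.865), and double-null differed from wild type by -0.19 (SE 0.09, adjusted p = 0.657). The effect of Hopx loss where Hdac2 was absent differed from its effect where Hdac2 was present by log2 -0.43 (interaction, SE 0.13, adjusted p = 0.951). In the brighter probe set the difference between double-null and Hdac2-null was -0.05 (SE 0.11), and the third, 1460291_at, stayed at or below 4.53 units.

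Erythroid markers were ordered like Cdk6 1455287_at between Hdac2-null and double-null ventricles. Of 9 such markers 3 were measured (Alas2, Hbb-y and Slc4a1), and Hba-a1, Hba-x and Epor were at or below the floor. Their summed signal was 556 to 1579 units in Hdac2-null and 159 to 228 in double-null ventricles, with no overlap, and 212 to 470 in wild type and 160 to 755 in Hopx-null. In double-null against Hdac2-null the embryonic globin gene Hbb-y differed by log2 -2.95 (SE 0.69, limma adjusted p = 0.319) and Alas2, an enzyme of haem synthesis, by -0.87 (SE 0.36, adjusted p = 0.403). Slc4a1 differed by -0.10 (SE 0.09) after the floor. Liver markers, measured in 3 of 7, summed to 52 to 569 units in Hdac2-null and 26 to 57 in double-null ventricles. All double-null sums and the lowest Hdac2-null sum were under the floor of a single probe set. No liver marker was therefore measurable on the double-null arrays. Ttr, a plasma carrier protein gene, differed by -0.53 (SE 0.23, adjusted p = 0.421), with its double-null signals set to the floor. Endothelial markers were also lower in double-null than in Hdac2-null ventricles in 9 of 10, with 1 higher (median log2 -0.24). The part of these markers in the Cdk6 values was not tested.

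With arrays weighted by their fit to the model, 4 of the 20 probe sets were called lower in double-null than in Hdac2-null ventricles. They were Ccnd2 1416123_at (log2 -0.35, limma adjusted p = 0.0126), 1448229_s_at (-0.31, adjusted p = 0.0249) and 1430127_a_at (-0.36, adjusted p = 0.0277), and Cdk6 1455287_at (-0.40, adjusted p = 0.013). In that fit double-null 2 had a weight of 8.55 and Hdac2-null 1 of 2.85, and 1477 of 15712 probe sets (9.4%) were called, 681 of them (4.33%) lower. No probe set of the 9 genes was called with these weights in another comparison.

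Cdk2, the kinase of cyclins E and A, had 1 tested probe set, 1416873_a_at. It read 1897, 1476 and 1493 units on wild type 1 to 3, 1573, 1536 and 1265 on the Hdac2-null arrays, 1663, 1319 and 1109 on the Hopx-null arrays, and 1565, 1464 and 1322 on the double-null arrays. Wild type 1 and Hopx-null 1 were the 2 highest arrays, and the groups overlapped. Between wild-type and Hopx-null arrays of the same number, Hopx-null was the lower in 3 of 3 pairs. Hopx-null, the lowest in mean, differed from wild type by log2 -0.26 (SE 0.16, adjusted p = 1), and double-null from wild type by -0.15 (SE 0.16, adjusted p = 0.796). Without wild type 1 and Hopx-null 1, double-null differed by -0.04 from wild type and by 0.26 from Hopx-null, against 0.11 with them. The other probe set, 1447617_at, stayed at or below 5.87 units.

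**Figure D4:**
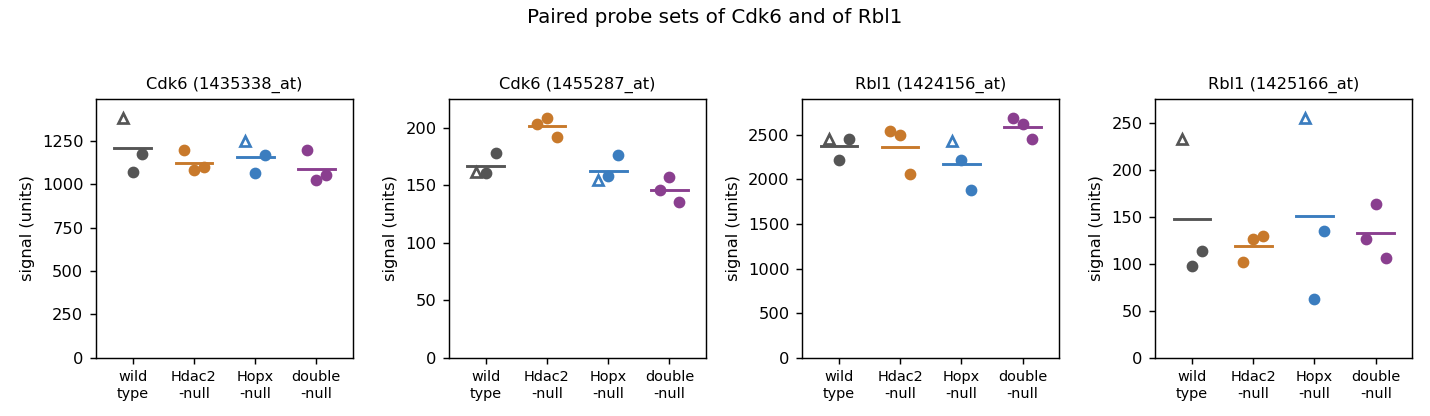
Signal in linear units, on an axis from 0, of the tested Cdk6 and Rbl1 probe sets on every array. Points are arrays, open triangles are wild type 1 and Hopx-null 1, and bars are group means. Cdk6 1455287_at separates Hdac2-null from the other 3 genotypes and 1435338_at does not, and Rbl1 1425166_at is highest on the arrays that stood apart.

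Of the pocket proteins, Rb1 had 1 probe set above the floor, 1417850_at. Its means were 2056 ± 252 units in wild type, 2032 ± 249 in Hdac2-null, 2087 ± 229 in Hopx-null ventricles, and 2037 ± 315 in the double-null group (SD, n = 3). The lowest array, at 1775, and the highest, at 2389, were an Hdac2-null and a double-null one, so the spread within genotypes exceeded that between them. Double-null differed from wild type by log2 -0.02, with a 95% interval from -0.32 to 0.29. The other probe set, 1444400_at, stayed at or below 4.60 units.

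Rbl1 is a pocket protein whose own expression is raised in dividing cells. Probe set 1424156_at read 2451, 2216 and 2457 units on wild type 1 to 3, 2543, 2494 and 2063 on the Hdac2-null arrays, 2427, 2221 and 1876 on the Hopx-null arrays, and 2682, 2621 and 2455 on the double-null arrays. Each double-null array was above each Hopx-null array, and double-null overlapped with wild type and Hdac2-null. Double-null was 1.20-fold higher than Hopx-null (log2 0.26, SE 0.11, 95% interval 0.02 to 0.49, adjusted p = 0.589), and log2 0.34 higher without the arrays that stood apart (adjusted p = 0.483). It differed from wild type by 0.12 (SE 0.11) and from Hdac2-null by 0.13 (SE 0.11). The dim probe set 1425166_at read 232, 97.0 and 113 on wild type 1 to 3 and 254, 62.9 and 135 on the Hopx-null arrays, a 4.04-fold range over all 12 arrays that was wider within genotypes than between them. The other 2 Rbl1 probe sets, 1432604_at and 1454293_at, stayed at or below 4.45 units.

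Rbl2 was measured by 1425981_a_at, which read 473, 314 and 279 units on wild type 1 to 3, 323, 336 and 295 on the Hdac2-null arrays, 326, 320 and 309 on the Hopx-null arrays, and 329, 287 and 339 on the double-null arrays. Wild type 1 was the highest array, and the other 11 lay between 279 and 339. Double-null differed from wild type by log2 -0.12 (SE 0.17, adjusted p = 0.857) with wild type 1 and by 0.10 without it. The second probe set, 1418146_a_at, stayed at or below 7.11 units.

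Double-null had the lowest mean of the 4 genotypes in 15 of the 20 tested probe sets, spread over 7 of the 9 genes and including 6 of 7 of Ccnd2. It was lowest in 31.1% of all probe sets tested. Hopx-null was lowest in 3 of the 20 (22% of all), Hdac2-null in 2 (28.6%) and wild type in 0 (18.3%). Against wild type, 17 of 20 were lower in double-null ventricles with a median log2 of -0.12, against a median of -0.01 over all probe sets. Every double-null array lay below every wild-type array in 3 probe sets, the pair of Ccnd2 and Cdk6 1455287_at (8.73% of all probe sets), and above in 0 (6.36%). Against Hdac2-null this held for 8 probe sets of 4 genes (13.9%) below and 0 above (12.2%). Against Hopx-null it held for 2 below (8.43%) and for Rbl1 1424156_at above (5.59%). The 7 Ccnd2 probe sets weigh in these counts as repeated readings of 1 gene.

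Loss of 1 gene alone left the medians of the 20 near those of all probe sets. In Hdac2-null against wild type, 8 were higher and 12 lower (median log2 -0.01, against -0.01 over all), with a smallest adjusted p of 0.865. In Hopx-null against wild type, 9 were higher and 11 lower (median -0.02, against 0 over all), with adjusted p of 1 throughout. Arrays of these genotypes with the same number were also read as pairs, which was counted after the values were seen. The sample titles name no pairing. The correlation between the deviations of the third pair (r = 0.163) lay within the range of genotypes not read as pairs (-0.204 to 0.241). Hopx-null was lower in all 3 pairs in 3 of the 20 (Cdk2 1416873_a_at and both tested Cdk6 probe sets), against 11.3% of all probe sets. It was higher in all 3 pairs in 4 (Ccnd1 1417420_at and Ccnd2 1416123_at, 1448229_s_at and 1455956_x_at), against 11.5% of all. With the replicate number as a block over all 12 arrays, the adjusted p of all 20 was 1 in this comparison. Hdac2 absent against present, which sets the 6 arrays of Hdac2-null and double-null against the other 6, gave 15 of 20 lower (median -0.06, against -0.01 over all probe sets, of which 45.7% were higher). The smallest adjusted p was 0.324, that of Ccnd2 1416123_at at log2 -0.29 (SE 0.06), and 0.0255% of all probe sets were called. At an unadjusted p under 0.05 there were 2 of the 20, both of Ccnd2, against 9.13% of all. Hopx absent against present gave 17 lower (median -0.06, against -0.01 over all, of which 46.0% were higher), with the smallest adjusted p, 0.414, at Cdk6 1455287_at (log2 -0.25, SE 0.06). In that comparison 0.0127% of all probe sets were called, and 1 of the 20 had an unadjusted p under 0.05 against 8.96% of all.

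The interaction, which asks whether the 2 losses add on the log2 scale, called 0% of all probe sets and none of the 20. At an unadjusted p under 0.05 there were 3, Ccnd2 1416123_at (log2 -0.52, SE 0.12) and 1448229_s_at (-0.41, SE 0.14) and Cdk6 1455287_at (-0.43, SE 0.13), each with an adjusted p of 0.951. Of all probe sets, 4.33% reached that level. In Ccnd2 1416123_at Hopx loss measured 0.15 where Hdac2 was present and -0.37 where it was absent.

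Between genes, the members with the most similar profiles over the 12 arrays were Ccnd3 and Cdk2 (r = 0.794, and 0.564 without wild type 1 and Hopx-null 1), Ccnd3 and Cdk6 (0.735, and 0.264 without them), Cdk2 and Rbl1 (0.722, and 0.867 without them), and Ccnd3 and Cdk4 (0.71, and 0.897 without them). Without the arrays that stood apart, r rose for Cdk2 and Rbl1 and for Ccnd3 and Cdk4, and fell for Ccnd3 with Cdk2 and with Cdk6. Ccnd2 ran opposite to Rb1 (-0.572, and -0.396 without wild type 1 and Hopx-null 1) and to Ccnd3 (-0.561, and -0.267 without them). These correlations describe 12 arrays that share genotype and array quality, use the highest-signal probe set of each gene and carry no test.

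Among 8979 other genes measured on all arrays, those most like each member by Pearson's r over the 12 arrays were as follows. Ccnd1 was most like Pgm2 (0.869), Opn4 and Nostrin. Ccnd2 was most like Inf2 (0.937), Tigd2 and Ank2. For Ccnd3 the closest genes were Carm1 (0.949), Ikbkb and Fermt2. For Cdk2 they were Zranb3 (0.917), Pa2g4 and Dnmt1. Cdk4 was closest to Emd (0.925), Vrk1 and Rpl13a, and Cdk6 to Taf5l (0.913), Ankrd63 and Wdr3. Rb1 was closest to Wipf1 (0.847), Jun and Smurf1. Rbl1 lay closest to Uhrf1 (0.913, and 0.933 without wild type 1 and Hopx-null 1), Efna2 and Tspyl3. Rbl2 lay closest to Aggf1 (0.906), Brap and Slc49a4, and its r with Aggf1 was 0.506 without the arrays that stood apart.

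The rest of the pathway was read from 7 lists, with 1 probe set per gene, and no gene of any list was called in any comparison. Inhibitors of the cyclin-kinase complexes were measured in 5 of 7 genes, and all 5 were lower in double-null than in wild-type ventricles (median log2 -0.13, against -0.01 over 9668 genes, of which 45% were higher). Cdkn1c, a kinase inhibitor of the fetal heart, read 1965 ± 380 against 2396 ± 499 in wild type (log2 -0.28, SE 0.22, adjusted p = 0.742). Cdkn2c, an inhibitor of Cdk4 and Cdk6, read 777 ± 20.1 against 948 ± 152 (-0.27, SE 0.14, adjusted p = 0.672). Against Hdac2-null, 3 of the 5 were lower (median -0.09). Genes taken to act upstream of the D cyclins were measured in 14 of 16, with 6 higher and 8 lower (median log2 -0.0047). Gata6, a cardiac transcription factor, read 2764 ± 180 against 3136 ± 123 (-0.18, SE 0.07, adjusted p = 0.644), and the receptor gene Erbb2 read 73.4 ± 10.2 against 105 ± 3.54 (-0.34 after the floor, SE 0.22).

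Downstream, 14 of 15 genes of a G1/S list were measured, with 9 higher and 5 lower in double-null than in wild-type ventricles (median 0.03). The list holds cyclins E and A and activators of the step, but also Fbxw7, Fbxo4, Fbxo31 and Ambra1, which act in cyclin degradation. Its counts are therefore not those of activators alone. Skp2, which marks kinase inhibitors for degradation, read 1467 ± 62.0 against 1219 ± 102 (log2 0.27, SE 0.11, adjusted p = 0.644), and the cyclin Ccne1 read 712 ± 85.7 against 644 ± 8.91 (0.14, SE 0.12). E2F and DP factors were measured in 8 of 10 genes, with 3 higher and 5 lower (median -0.04), among them E2f5 at 0.25 (SE 0.20) and E2f7 at 0.15 (SE 0.17). Genes of the MuvB complex, listed with the Myb genes Mybl1 and Mybl2, were measured in 5 of 7, with 3 higher and 2 lower (median 0.11). Among them were Lin37 at -0.25 (SE 0.15) and Lin9 at 0.16 (SE 0.11). Mybl1, which is not a MuvB subunit, was among the higher at 0.21 (SE 0.22).

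E2F target genes were measured in 24 of 29. Against wild type, 14 were higher and 10 lower in double-null ventricles (median log2 0.08), and against Hdac2-null 20 were higher and 4 lower (median 0.13, against -0.0046 over all genes, of which 47.7% were higher). Both comparisons use the same double-null arrays. In Hdac2-null against wild type, 7 of these genes were higher and 17 lower (median -0.05, against -0.01 over all genes, of which 44.1% were higher). Hells, a chromatin remodeller of dividing cells, read 1640 ± 60.7 against 1311 ± 216 in wild type (0.34, SE 0.13, adjusted p = 0.642), and Cdc6, a replication licensing factor, read 1118 ± 94.8 against 924 ± 67.2 (0.27, SE 0.13, adjusted p = 0.664). G2/M markers, which follow cells in division, were measured in 14 of 15, with 7 higher and 7 lower against wild type (median 0.00056). The inhibitors were lower and the E2F targets higher in median than all genes, in these counts only, and neither list holds a gene that passed the test.

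**Figure D5:**
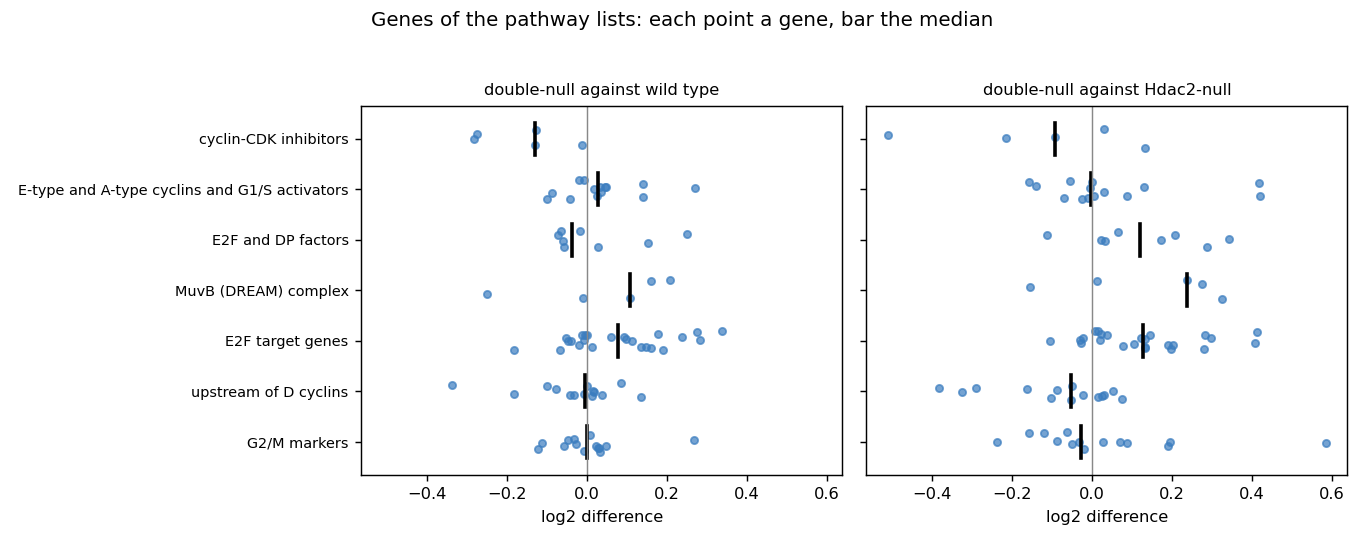
Log2 difference of double-null ventricles from wild type and from Hdac2-null for each measured gene of 7 lists. Points are genes and bars are list medians. In the panel against Hdac2-null, 20 of 24 E2F target genes lie right of 0, and in the panel against wild type 14 of 24.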

How the data were processed

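Total RNA of 12 mouse embryonic ventricles was labelled with biotin and read on single-colour Affymetrix arrays, per the labels' protocols. The deposited table gives each probe set a linear intensity on every array. MAS5 is named, without a version, in the submitters' processing notes, but 48.6% of values lay within 1 unit of 4.5, so the summary method behind the deposited intensities stays unsure. Values were used without further normalisation. Intensities under 82.5 (a floor of 0.1 times the average 2% trimmed mean signal of an array) were set to that floor and log2 transformed, which shrinks differences of dim probe sets.

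Platform annotation gave a single gene for 34945 probe sets, several genes for 932 and no gene for 9160, and 64 were controls. The 15712 of the first kind above the floor on at least 1 array were fitted with limma 3.58.1 in R 4.3.3 (lmFit, and eBayes with an intensity trend), with 1 coefficient per genotype over all 12 arrays and 8 residual degrees of freedom. Benjamini-Hochberg adjustment was applied to the p-values of each of 8 comparisons separately. The number of arrays limits the precision. The labels call the replicates biological. The fit was tested on simulated data. Named genes were all probe sets of the 9 genes, Hdac2 and Hopx, the 2 genes of smallest p in double-null against wild type in each pathway list, and the 3 genes most like each member. The members, lists and tests were chosen with earlier results of these data known. Deviations from the group means correlated between wild-type and Hopx-null arrays of the same number (r = 0.496, 0.522 and 0.163 over 14202 probe sets). These arrays were read as pairs, although the sample titles name no pairing and the first pair is the arrays that stood apart. In the other pairs of genotypes r ran from -0.204 to 0.241, a range that holds the third value, and the numbers were not read as pairs. The replicate block nevertheless covers all 12 arrays. Alternatives tried were the floor, a pseudocount of 50, normalisation between arrays, filters, 1 probe set per gene, no trend, array weights, only the groups compared, the replicate block, and leaving out arrays.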

Additional observations from a re-analysis of the deposited data

How the results depend on the processing

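Over 25 alternatives, 160 results of the 20 probe sets gave 3844 values. Of these, 3831 counted as unchanged: they stayed uncalled and kept their sign, or changed sign with a shift under 1 SD within genotypes. The size of a shift that kept its sign was not limited. A further 9 changed sign with a larger shift. Of the uncalled differences 285 had the other sign, and no called value reversed, since none was called. The alternative that brought calls among the members was array weights, with 4 in double-null against Hdac2-null. Leaving out any 1 array gave 0 to 0 called members in each of the 8 comparisons. With the replicate number as a block, 0 members were called in every comparison (smallest adjusted p = 0.182), and the count over all probe sets was 3 in Hdac2-null, 2 in Hopx-null and 5 in double-null against wild type. The block changed no other call.

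Counts over all probe sets moved more, being small. With array weights they were 12 in double-null against wild type, 1477 in double-null against Hdac2-null and 9 for Hdac2 absent against present. Among probe sets above the floor on all 12 arrays they were 0 in Hdac2-null and 1 each in Hopx-null and double-null against wild type, 1 in double-null against Hdac2-null, 0 in double-null against Hopx-null, 0 for Hdac2 absent and 1 for Hopx absent. With 1 probe set per gene they were 1 in Hopx-null and 3 in double-null against wild type, 1 in double-null against Hdac2-null, 2 for Hdac2 absent and 1 for Hopx absent; both settings test fewer probe sets. Hopx absent against present gave 4 without the floor and 4 with log2(signal + 50), and Hopx-null against wild type gave 1 with only the groups compared. Without wild type 1 and Hopx-null 1 together they were 4 in Hopx-null against wild type, 9 in double-null against Hopx-null, 12 for Hdac2 absent and 1 in the interaction. Without 1 array in turn the counts ran from 3 to 13 in Hdac2-null, 2 to 3 in Hopx-null and 4 to 13 in double-null against wild type, 2 to 5 in double-null against Hdac2-null and against Hopx-null, 3 to 20 for Hdac2 absent, 2 to 3 for Hopx absent and 0 to 2 in the interaction. Wild type 3 gave the highest of these in 4 comparisons: 13 in Hdac2-null, 13 in double-null, 20 for Hdac2 absent and 2 in the interaction. Hdac2-null 1 gave 5 in double-null against Hdac2-null, and Hopx-null 1 gave 5 in double-null against Hopx-null. The cause was not tested where no cause is named. Probe sets near the floor of 82.5 units, such as Rbl1 1425166_at, have values limited by background.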
